A study of Mus musculus with 48 samples.

Results

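Astrocytes clear glutamate and GABA from the space around synapses and return them to neurons as glutamine, and 6 genes that carry out these steps were followed here in ribosome-bound RNA of the mouse dorsal hippocampus. The genes were Slc1a2, Slc1a3, Glul, Slc6a11, Slc38a3 and Abat, chosen by name for their role and matched by symbol to Ensembl gene IDs, 6 of the 47643 genes listed for each sample. The animals carried the transgene Tg(Aldh1l1-eGFP/Rpl10a) JD130Htz, in which the promoter of the astrocyte gene Aldh1l1 drives a fusion of green fluorescent protein (GFP) with ribosomal protein L10a, and an antibody to GFP was used to pull down tagged ribosomes with their RNA. Libraries of full astrocytes (called Astro) and of the thin astrocyte branches that lie against synapses (perisynaptic astrocytic processes, PAP) came from the same 3 animals, and the comparison asks which transcripts on tagged ribosomes are more or less abundant in the processes. Every library of both groups came from transgenic mice and the GFP pulldown, and the age and sex of the animals and the way in which processes were separated from cells are not given in the sources used here.

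Each animal and compartment was sequenced as 8 technical replicates, which were summed, so that each group had 3 libraries. Library totals were 18707844 to 20293538 counts in Astro and 1829962 to 2980984 in PAP, so PAP was the shallower group in every animal. With all libraries thinned to equal depth, the members' only call (Slc1a3, below) was kept, at an adjusted p of 0.0480. Astrocyte identity genes that are not among the 6 (a list of 12, including Aldh1l1, Gfap, Aqp4 and Aldoc) were present in all Astro libraries, with summed levels of 21798 to 28333 CPM (each gene's counts scaled to a common library size with edgeR's TMM factors, as all CPM below), and in PAP they reached 2822, 7242 and 12877 CPM in animals 1 to 3. Marker sums for other cells overlapped between groups for neurons (710 to 1357 CPM in Astro, 478 to 1373 in PAP), oligodendrocytes (1068 to 1102, and 572 to 1107) and endothelium (12.7 to 28.7, and 15.4 to 24.4), and were higher in PAP for microglia (29.1 to 68.5, and 80.9 to 218). Neuronal genes moved in both directions within their sum: of 12 tested, Syt1 rose from 88.3 to 233 CPM (edgeR adjusted p 0.0414) and Snap25 fell from 529 to 113 CPM (0.0296). Camk2a, at 49.6 and 237 CPM, did not overlap between groups but missed the threshold (edgeR adjusted p 0.0663). So did Tubb3, lower at 8.71 and 0.338 CPM (edgeR adjusted p 0.0639), with 2, 0 and 0 counts in PAP. Of the 12 log2 fold changes, 8 were below 0, with a median of -0.59. Most of the microglial sum in PAP animals 1 and 2 was Ctss, at 121 and 187 CPM, which was at 2.63 CPM in animal 3. Of 8 microglial genes tested, 3 (Cx3cr1, P2ry12 and Tmem119) were called lower, beside 15.4% of all tested genes, and Ctss did not pass (edgeR adjusted p 0.131). With the animal as a block none of these neuronal and microglial calls held (edgeR adjusted p 0.127 for Snap25, 0.206 for Syt1 and 0.206 to 0.207 for the microglial genes). That fit called only 128 of 14618 genes higher in PAP and 5 lower, so the loss says little about any 1 gene. The microglial genes Cx3cr1, P2ry12, Tmem119 and Aif1 were at 0 counts in all PAP libraries, as were the endothelial genes Cldn5, Cdh5, Slco1a4, Itm2a and Esam. So were 30418 of all 47643 genes. In the deeper Astro libraries of animals 1 to 3 the named genes ran from 0, 0 and 10 counts (Cdh5) to 416, 161 and 96 (P2ry12). A count of 0 in PAP therefore does not show that these cells were absent. The part of other cells in the results below was not tested.

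As background, the sodium-coupled transporters EAAT2 (Slc1a2, also called GLT-1) and EAAT1 (Slc1a3, also called GLAST) take up most synaptic glutamate, and GAT-3 (Slc6a11) takes up GABA. Glutamine synthetase (Glul) turns glutamate and ammonia into glutamine inside the astrocyte, SNAT3 (Slc38a3) can release that glutamine for neurons to take up again, and GABA transaminase (Abat) breaks down GABA in mitochondria. All of these are known as astrocyte genes of the adult brain, although neurons also use Abat.

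The RNA-binding protein Quaking, which is known to regulate messenger RNAs of glia, recognises the letters ACTAAC or ACTAAT (U in place of T in the RNA) in 3′ untranslated regions, and the 3′ ends of the 6 genes were searched for them on the transcript strand only, because the protein binds RNA. The transcript with the longest coding sequence of each gene in GENCODE M21 was used. In the first 1000 bases after the stop codon, 0 of the 6 genes had either form. Of 9106 genes with a region that long, 29.0% had at least 1, and 6 genes are too few to be set apart from that share. Farther downstream Slc1a2 had 4 matches in a region of 9250 bases, Abat 2 in 2942 bases and Slc1a3 1 in 2008 bases, and Glul, Slc6a11 and Slc38a3 had 0 in 1541, 2212 and 1300 bases. No count over other genes was made for these farther stretches. A match is a run of letters and not a shown binding site, and gene counts do not separate transcripts with different 3′ ends. The 7 stretches of 30 bases, shown because they are the places where these transcripts could differ in this respect, are given 5′ to 3′ on the transcript strand with the matching letters in capitals, on GRCm38.
Slc1a2, chr2:102784367-102784396, plus strand: tgtgtcacatacACTAACtccaggaaccag
Slc1a2, chr2:102787121-102787150, plus strand: gattgggttcacACTAACactctgaatcat
Slc1a2, chr2:102790494-102790523, plus strand: tggtatttaaagACTAATgaatgcaaagag
Slc1a2, chr2:102790512-102790541, plus strand: gaatgcaaagagACTAATttgggggctgtt
Slc1a3, chr15:8634253-8634282, minus strand: gatattttttatACTAACcatttcttacag
Abat, chr16:8621312-8621341, plus strand: gcacattcatgtACTAATagatctgtacct
Abat, chr16:8621456-8621485, plus strand: aggggtgaggacACTAACagtgtaactggt

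In PAP the 6 genes took a smaller part of the ribosome-bound RNA than in whole astrocytes of the same animals, 0.171%, 0.228% and 0.444% of all counts in animals 1 to 3 against 0.784%, 0.789% and 0.558% in Astro. All 6 had a negative log2 fold change from Astro to PAP, with a median of -1.43 beside -0.53 for all 14618 genes tested. Of the 6, only Slc1a3 passed edgeR's quasi-likelihood test at an adjusted p under 0.05, a level at which 15.4% of all tested genes were called lower in PAP, 5.92% higher and 21.3% in either direction. The groups did not overlap, with PAP lower, for 4 of the 6 (Slc1a2, Slc1a3, Glul and Slc38a3), and this was so for 35.1% of all tested genes. The same 4 were lower in PAP within each of the 3 animals, beside 40.0% of all tested genes.

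**Figure D1:**
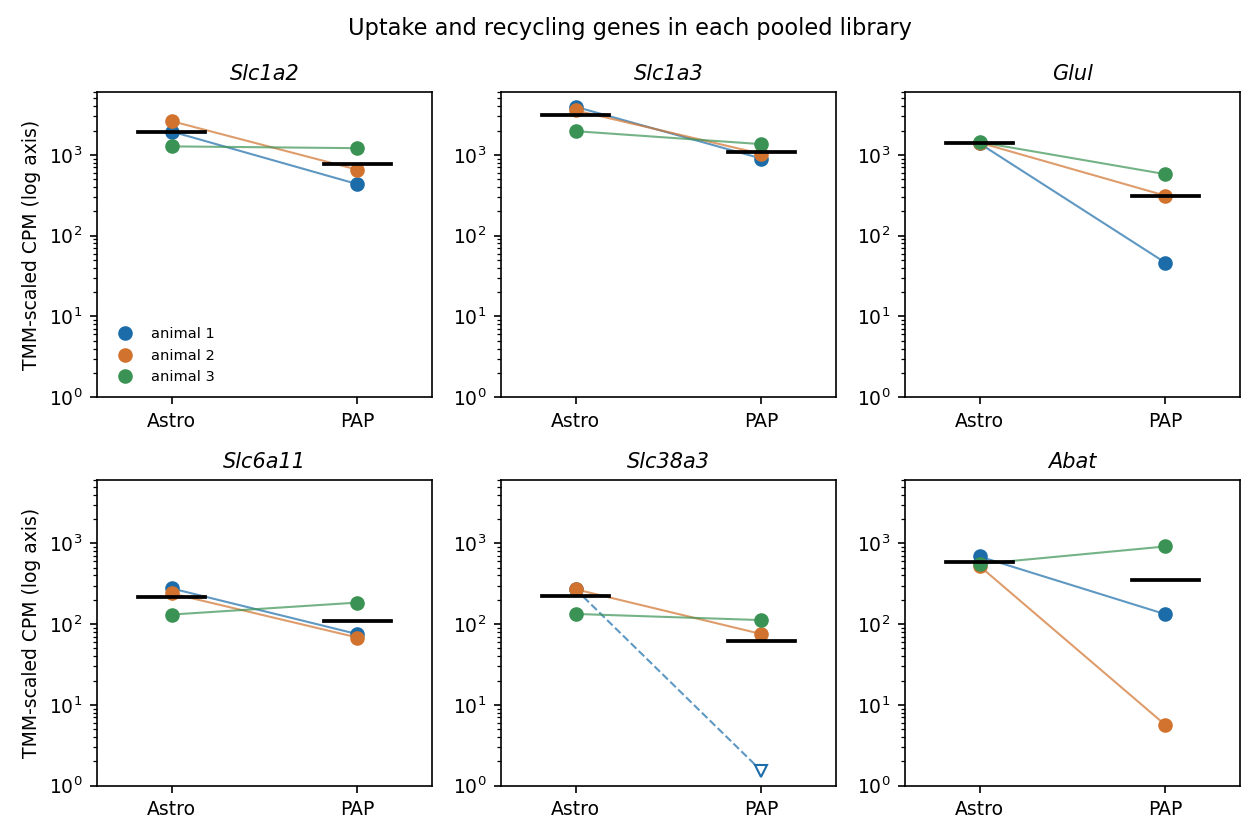
TMM-scaled CPM (log axis) of the 6 genes in the Astro and PAP library of each of 3 animals, joined by lines, with bars for group means; the open triangle marks Slc38a3 at 0 counts in PAP animal 1, drawn at its floor of 3 counts. Values of Slc1a3 lie close together in PAP, between 900 and 1357 CPM, whereas Abat spreads from 5.64 to 915 CPM.

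By the coefficient of variation, the glutamate transporters varied least of the 6 between PAP libraries. Slc1a3 (ENSMUSG00000005360, chromosome 15, 8634124 to 8710764, minus strand) stood at 3938, 3554 and 1964 CPM in Astro animals 1 to 3 and at 900, 1028 and 1357 CPM in PAP. Every Astro library was above every PAP library, and animal 3 had both the lowest Astro and the highest PAP value. Slc1a3 fell in PAP by 1.53 ± 0.32 (SE) on the log2 scale (edgeR adjusted p 0.0216), from 3152 ± 1047 to 1095 ± 236 CPM (SD, n = 3). With the animal as a block its log2 fold change was -1.49 and the adjusted p 0.206, in a fit that called 0.0342% of genes lower. Within animals 1 to 3 the log2 difference was -2.13, -1.79 and -0.53.

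Slc1a2 (ENSMUSG00000005089, chromosome 2, 102658659 to 102790784, plus strand) stood at 1946, 2617 and 1274 CPM in Astro and at 434, 655 and 1210 CPM in PAP. The groups did not overlap, but in animal 3 the compartments lay side by side, at 1274 and 1210 CPM. The log2 fold change was -1.34 ± 0.45 (SE) and did not pass (edgeR adjusted p 0.0907). Without PAP animal 3 it was -1.90 with an adjusted p of 0.0262, in a fit that called 20.2% of genes lower. A short antisense gene, Gm13872, shares 189 exonic bases with Slc1a2, and since the strand setting of the counting is not given, reads from that stretch cannot be assigned to either.

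The ratio of Slc1a2 to Slc1a3 overlapped between the compartments. Counts of Slc1a2 were 0.494, 0.736 and 0.648 times those of Slc1a3 in Astro animals 1 to 3 and 0.482, 0.637 and 0.891 times in PAP. The log2 ratio averaged -0.69 with an SD of 0.29 over the Astro libraries and -0.62 with an SD of 0.44 over the PAP libraries (n = 3 each, exact permutation p 1.0, two-sided as for every ratio), a difference of 0.07 that turned to -0.09 without Astro animal 1 and to -0.16 without PAP animal 3. A ratio within a library does not depend on how libraries are scaled. Because 3 libraries against 3 allow no p below 0.1, this does not show that the ratios are equal.

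The GABA transporter Slc6a11 (ENSMUSG00000030307, chromosome 6, 114131241 to 114249952, plus strand) was less abundant, at 277, 240 and 131 CPM in Astro and 75.1, 68.2 and 185 CPM in PAP. PAP was lower in animals 1 and 2 and higher in animal 3, and the groups overlapped. Its log2 fold change was -0.98 ± 0.54 (SE), which did not pass (edgeR adjusted p 0.293). Without PAP animal 3 it was -1.66 with an adjusted p of 0.0451.

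Glul (ENSMUSG00000026473, chromosome 1, 153899944 to 153909723, plus strand) was the most uniform of the 6 across the Astro libraries and spread widely across PAP. It stood at 1385, 1419 and 1438 CPM in Astro, a coefficient of variation of 1.88%, and at 46.2, 312 and 577 CPM in PAP. All PAP libraries lay below all Astro libraries, and animal 1 was the lowest by far. The log2 fold change was -2.18 ± 0.80 (SE) and did not pass (edgeR adjusted p 0.115). Without PAP animal 1, where 91 counts were recorded, it was -1.71 ± 0.30 with an adjusted p of 0.0222, in a fit that called 19.6% of genes lower. The exons of Glul overlap those of Teddm2 on the opposite strand and of Mir8114 on the same strand. These were counted at 2742 to 2878 and 2334 to 2435 in Astro, beside 24293 to 28466 for Glul, and at 12 to 292 and 9 to 250 in PAP, so the assignment of reads from the shared stretches is uncertain.

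Slc38a3 (ENSMUSG00000010064, chromosome 9, 107650634 to 107669530, minus strand) stood at 271, 270 and 134 CPM in Astro and at 0, 75.4 and 112 CPM in PAP. PAP animal 1 had 0 counts in all 8 technical replicates, where 3 counts would be 1.52 CPM, and the 2 other PAP libraries had 147 and 341 counts. The log2 fold change was -1.84 ± 1.48 (SE) and did not pass (edgeR adjusted p 0.494). Without PAP animal 1 it was -1.30 ± 0.46 with an adjusted p of 0.0969. In the libraries with counts of both, Slc38a3 was 5.46, 3.42 and 2.16 times Slc38a1, a glutamine carrier better known from neurons, in Astro, and 1.05 and 0.826 times in PAP animals 2 and 3. No test was made of this ratio, since 1 PAP library had none.

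Abat (ENSMUSG00000057880, chromosome 16, 8513429 to 8621568, plus strand) stood at 688, 524 and 555 CPM in Astro and at 133, 5.64 and 915 CPM in PAP. The PAP libraries spanned a 162-fold range, with 11 counts in animal 2 and the highest of all 6 libraries in animal 3. The log2 fold change was -0.75 ± 1.35 (SE), within the spread of the libraries (edgeR adjusted p 0.79), and it was -3.16 without PAP animal 3 and -0.23 without PAP animal 2. The Abat to Slc6a11 count ratio, which sets GABA breakdown beside GABA uptake, was 2.49, 2.19 and 4.23 in Astro and 1.76, 0.0827 and 4.95 in PAP (exact permutation p 0.5, and 0.667 adjusted over the 4 ratios). Without PAP animal 2 the difference in the log2 ratio turned from -1.66 to 0.06.

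**Figure D2:**
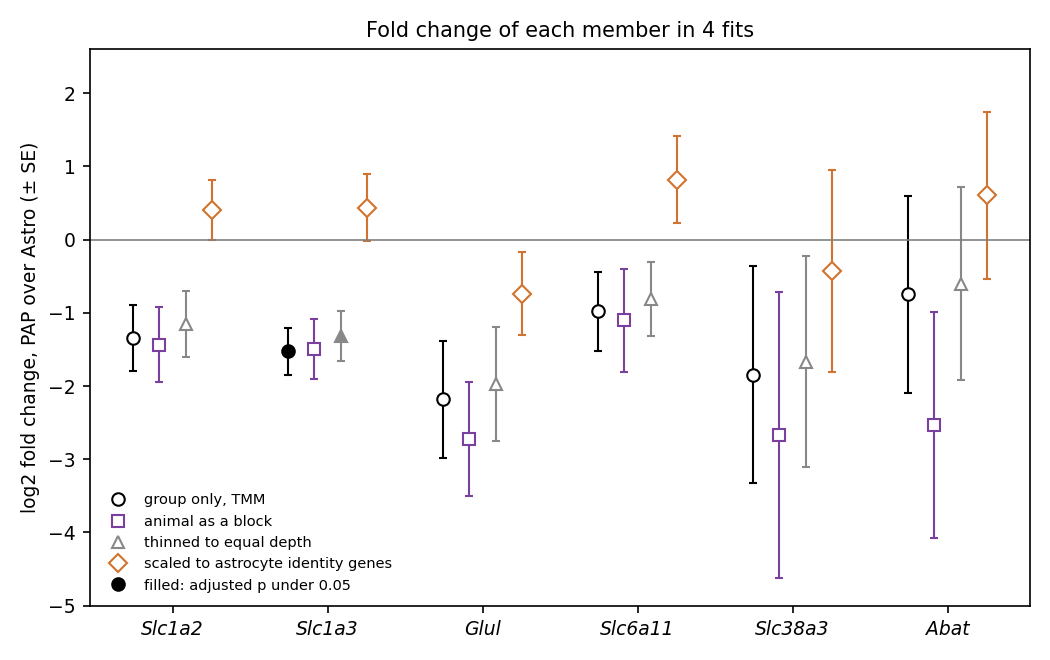
Log2 fold change from Astro to PAP with its SE for the 6 genes in 4 edgeR fits: group only with TMM factors, the animal as a block, all libraries thinned to equal depth, and libraries scaled to astrocyte identity genes. Filled symbols have an adjusted p under 0.05, which only Slc1a3 reached, in the group-only and thinned fits; values lie below 0 in the former 3 fits and around 0 in the last.

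With 1 library left out, the log2 fold change of Slc1a3 stayed between -1.78 and -1.34. Its adjusted p was 0.108, 0.101 and 0.0672 without Astro animals 1, 2 and 3, in fits that called only 0.00773%, 0.0388% and 0.0389% of genes lower and so say little about any 1 library. It was 0.0538 without PAP animal 2, where 17.8% were called lower. It passed, at 0.0407 and 0.0239, without PAP animals 1 and 3. Over the 8 technical replicates of PAP animal 1, Slc1a3 ran from 820 to 1025 CPM and Glul from 34.6 to 60.4 CPM, whereas Abat in PAP animal 2, with 11 counts in all, ran from 0 to 13.1 CPM.

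The members differed widely in how much they varied between PAP libraries. The coefficient of variation over the 3 PAP libraries was 21.5% for Slc1a3, 52.2% for Slc1a2, 59.8% for Slc6a11, 85.1% for Glul, 91.5% for Slc38a3 and 140% for Abat, beside a median of 58.1% for the 2240 tested genes with an Astro mean of at least 100 CPM. Of these genes, 12.4% had a lower PAP coefficient of variation than Slc1a3, and 93.1% a lower one than Abat. In Astro the order was different, with 1.88% for Glul, 14.8% for Abat and 33.2% to 35.1% for the 4 transporters, beside a median of 12.6%.

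Levels per kilobase of exon, which allow genes to be compared with each other, put Glul first in Astro at 426 ± 8.02 CPM per kilobase (SD, n = 3) and Slc1a3 next at 369 ± 123, and these neighbours overlapped. Slc1a2 followed at 148 ± 51.2, Abat at 76.1 ± 11.2, Slc6a11 at 42.8 ± 15.0 and Slc38a3 at 42.6 ± 15.0, and from Slc1a3 down the libraries of neighbours did not overlap, except for the last pair. In PAP the order of the means was Slc1a3 (128 ± 27.6), Glul (93.8 ± 79.8), Slc1a2 (58.3 ± 30.4), Abat (45.3 ± 63.6), Slc6a11 (21.7 ± 13.0) and Slc38a3 (11.8 ± 10.8), and all neighbours overlapped. Glul ranked 92 to 123 among all genes per kilobase in the Astro libraries and 375 to 3816 in PAP, while Slc1a3 ranked 99 to 218 and 420 to 529.

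Of the 12 astrocyte identity genes, 5 fell in PAP (Aldh1l1, Gjb6, Sox9, Aldoc and Acsbg1), beside 15.4% of all tested genes, and their edgeR adjusted p was 0.121 to 0.206 with the animal as a block. The other 7 did not pass, among them S100b (edgeR adjusted p 0.573), which was higher in PAP in animal 3. All 12 log2 fold changes were below 0, with a median of -1.54 beside -1.43 for the 6 members. The Slc1a3 transcript stood at 294%, 313% and 193% of the geometric mean of 11 identity genes (those with more than 3 counts in every library) in Astro animals 1 to 3 and at 534%, 326% and 223% in PAP. For Slc1a2 the values were 145%, 230% and 125% in Astro and 257%, 208% and 199% in PAP, and for Glul 104%, 125% and 141% in Astro and 27.4%, 99.0% and 94.8% in PAP. Relative to these genes the Astro and PAP libraries overlapped for both glutamate transporters, and Glul was lower in every PAP library than in every Astro library. Within animals, Slc1a3 was higher in PAP in animals 1, 2 and 3, and Slc1a2 was higher in animals 1 and 3 and lower in animal 2. These differences within animals were not tested.

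When libraries were scaled to those 11 genes in place of TMM factors, the log2 fold change of 4 of the 6 turned positive: 0.41 ± 0.41 for Slc1a2, 0.44 ± 0.46 for Slc1a3, 0.82 ± 0.59 for Slc6a11 and 0.60 ± 1.14 for Abat (SE). Glul was at -0.74 ± 0.57 and Slc38a3 at -0.43 ± 1.38. None of the 6 passed in this edgeR fit (0 also at an unadjusted p under 0.05), where adjusted p ran from 0.346 to 0.836 and 12.1% of tested genes were called higher and 9.64% lower. The scaling moved the median of all tested genes by 1.94, from -0.53 to 1.41, and relative to that median the 6 lay at -0.91 with TMM factors and at -0.99 with the identity scaling (medians). In the blocked fit all tested genes had a median of -1.63, and relative to it Slc1a2, Slc1a3 and Slc6a11 lay above, at 0.20, 0.14 and 0.53, and Glul, Slc38a3 and Abat below, at -1.09, -1.04 and -0.90. In bulk samples such as these, fewer astrocyte ribosomes in a library and fewer of these transcripts per ribosome cannot be told apart.

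**Figure D3:**
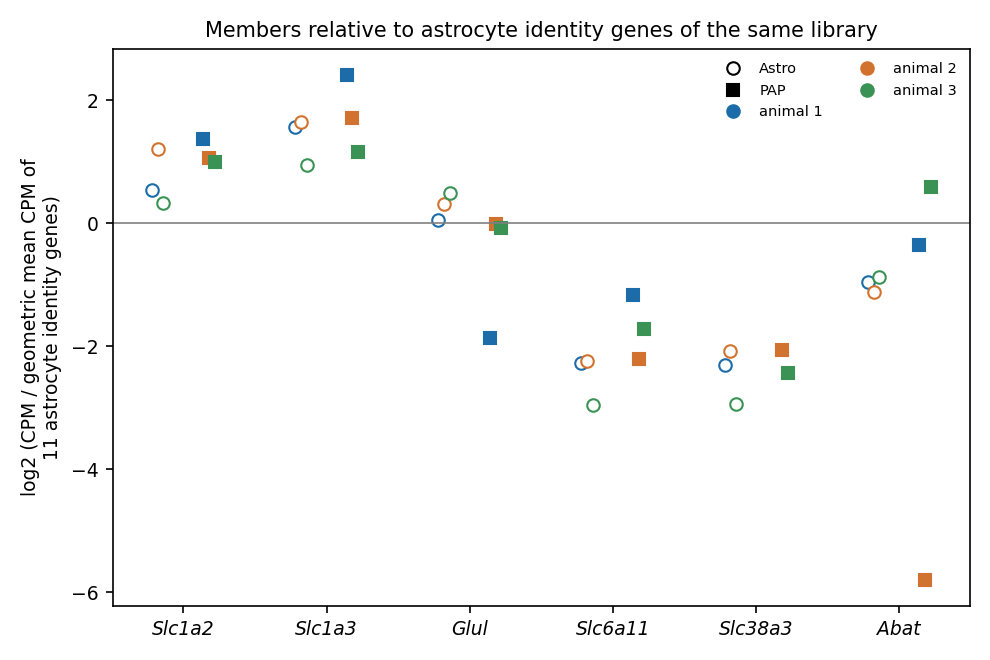
Log2 of the CPM of each gene over the geometric mean CPM of 11 astrocyte identity genes in the same library, for Astro (open circles) and PAP (filled squares) of 3 animals; Slc38a3 in PAP animal 1 is at 0 counts and not drawn. Slc1a2 and Slc1a3 lie above 0 in all 6 libraries, and Glul lies below 0 in the 3 PAP libraries.

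Identity genes also differed between the PAP libraries. In PAP, 10 of the 12 identity genes were highest in animal 3 and 10 were lowest in animal 1, and all 6 uptake and recycling genes were highest in animal 3. The share of all tested genes with this order was not computed, so it may not be particular to these genes. Animal 3 also gave the deepest PAP library, at 2980984 counts. The geometric mean of the 11 identity genes was 169, 315 and 608 CPM in PAP animals 1 to 3 against 1338, 1136 and 1019 CPM in Astro. The part of these library differences in the fold changes was not tested.

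The transcripts whose profile over the 6 libraries was closest to each gene were found by the root-mean-square difference of log2(CPM + 1) after centring, among 9958 tested genes with a mean of at least 10 CPM. For Slc1a2 they were Tspan3 and Emc7 (differences of 0.09 and 0.11 on the log2 scale), and for Slc1a3 the closest was Tmed7 (0.12). Slc6a11 was closest to Tceal9 and Ptn (0.20 and 0.21), Glul to Ift27 and Alas1 (0.17 and 0.20), Abat to Ndp and Prex2 (0.15 and 0.16) and Slc38a3 to Ctsl and Ramp1 (0.28 and 0.37). Among the 6 themselves, Slc1a2, Slc1a3 and Slc6a11 lay within 0.31 to 0.37 of each other, and Abat lay at 1.90 or more from all the rest. With 6 libraries and so many genes, closeness of this kind is a description of these libraries.

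Other genes of the pathway were taken from 5 lists of transporters, enzymes and receptors, 46 genes of which 40 were tested. Of the 40, 7 were called lower in PAP and 1 higher, shares near the 15.4% lower and 5.92% higher of all tested genes, with a median log2 fold change of -0.23. DESeq2 called 10 of the 46, beside 4756 of the 17357 genes to which it gave an adjusted p. With the animal as a block edgeR called 0 of the 40, with 9 at an unadjusted p under 0.05. Over all 14618 tested genes that fit called 133, with 3402 at an unadjusted p under 0.05.

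**Figure D4:**
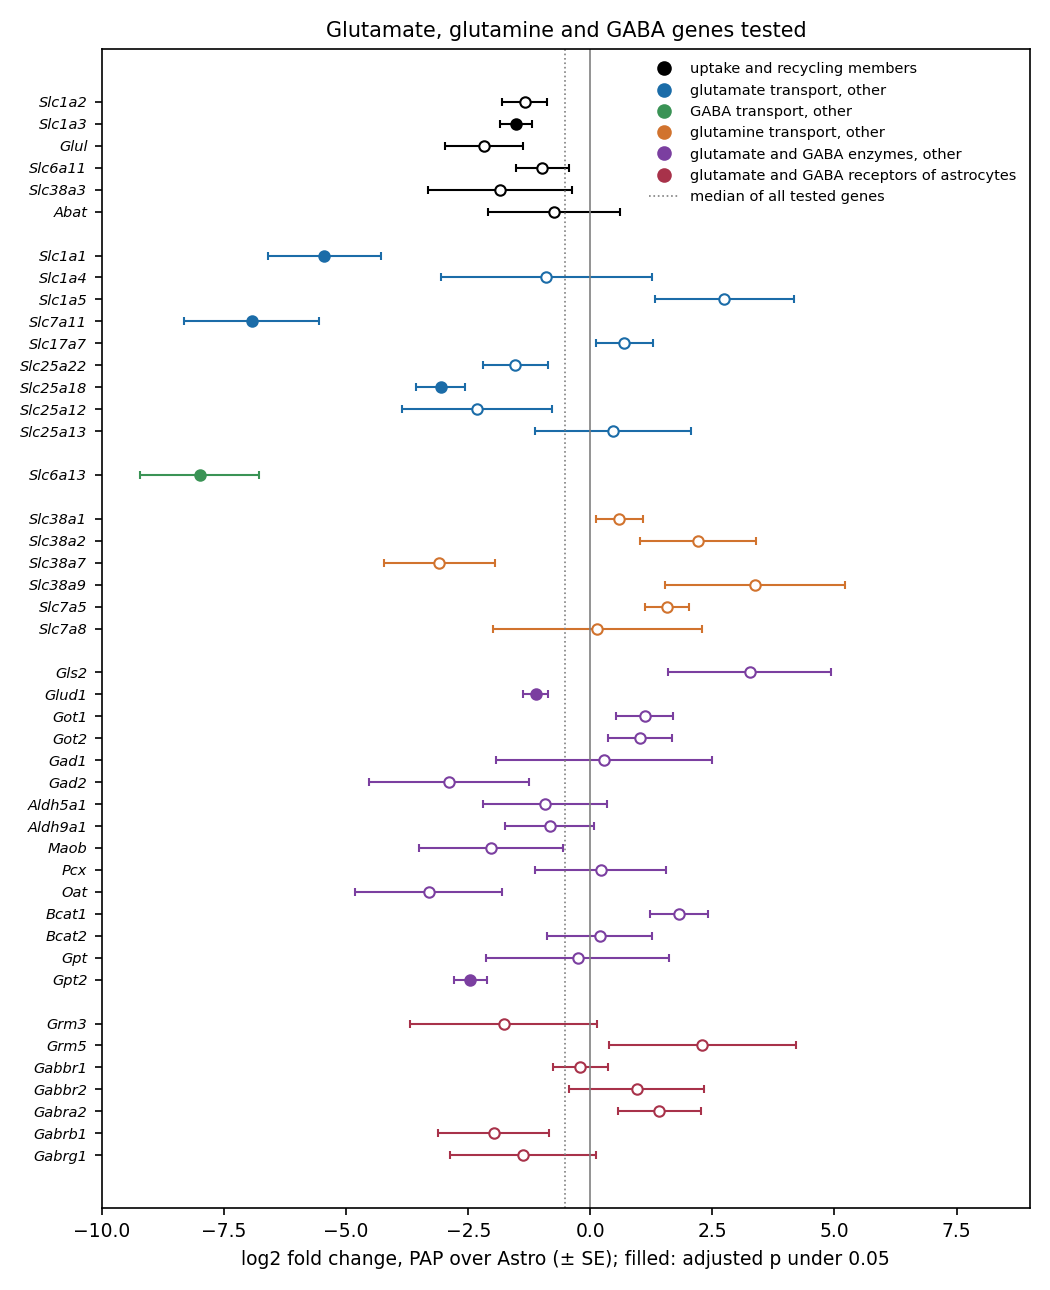
Log2 fold change from Astro to PAP with its SE for the 6 uptake and recycling genes and 38 other tested genes of glutamate, glutamine and GABA handling, by list; filled symbols have an edgeR adjusted p under 0.05 and the dotted line is the median of all tested genes. The filled symbols are Slc1a3 and 6 other genes, all to the left of 0.

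Among the 12 other glutamate carriers, 3 of 9 tested were lower and 0 higher, beside 15.4% and 5.92% of all tested genes. Slc25a18, the mitochondrial glutamate carrier known from astrocytes, fell from 504 ± 51.2 to 60.2 ± 30.9 CPM (SD, n = 3), by 3.06 ± 0.50 (SE) on the log2 scale (edgeR adjusted p 0.0208, and 0.0948 with the animal as a block), and was at -1.36 with the identity scaling (edgeR adjusted p 0.111). Slc7a11, the cystine and glutamate exchanger, had 978 counts in Astro and 1 in PAP, a ratio of 111 once scaled to totals (95% exact interval 19.9 to 4391, counting error only), and Slc1a1, the mainly neuronal glutamate transporter EAAT3, had 358 and 1, a ratio of 40.7 (7.25 to 1610). Both passed with TMM factors (edgeR adjusted p 0.0208 and 0.0216) and not with the animal as a block (0.206 for each). Slc17a7, the vesicular glutamate transporter of excitatory neurons, was at 66.3 ± 15.0 CPM in Astro and 108 ± 63.9 in PAP (SD, n = 3) and did not pass (edgeR adjusted p 0.516).

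Among the other GABA carriers, Slc6a13, the transporter GAT-2 known mainly from the brain's coverings and vessels, was at 3.06 ± 0.995 CPM (SD, n = 3) in Astro and at 0 counts in the 3 PAP libraries, at least 2.27-fold lower against a floor of 3 counts per library. Slc32a1, the vesicular GABA transporter, was at 0.438 CPM in Astro and 3.33 CPM in PAP, below the count filter of the edgeR fit, and did not pass in DESeq2 (adjusted p 0.0881).

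Of the 6 other glutamine carriers tested, edgeR called 0 in either direction, with 2 at an unadjusted p under 0.05, and DESeq2 called 1. Of their log2 fold changes 5 were above 0, with a median of 1.09. Slc7a5, which exchanges glutamine for large neutral amino acids, was at 41.0 ± 6.03 CPM in Astro and 122 ± 31.8 in PAP (SD over 3 libraries each), and its log2 fold change of 1.58 ± 0.45 (SE) missed the threshold (edgeR adjusted p 0.0524). Slc7a5 passed in 9 of the alternatives and did not in 8, with adjusted p from 0.00119 (DESeq2) to 0.254 (edgeR with the animal as a block). Slc38a1 was at 63.5 ± 14.7 and 95.8 ± 34.9 CPM (SD, n = 3; edgeR adjusted p 0.505).

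Of 16 enzymes, 2 were called lower, beside 15.4% of all tested genes. The median log2 fold change of the 16 was -0.03, beside -0.53 for all tested genes. Gpt2, the mitochondrial alanine transaminase, fell from 388 ± 64.1 to 70.8 ± 18.6 CPM (SD, n = 3), by 2.46 ± 0.34 (SE) on the log2 scale (edgeR adjusted p 0.0168, and 0.133 with the animal as a block), and was at -0.28 with the identity scaling (edgeR adjusted p 0.796). Glud1, glutamate dehydrogenase, fell from 375 ± 29.0 to 173 ± 11.2 CPM (SD, n = 3), by 1.12 ± 0.25 (SE; edgeR adjusted p 0.0240, and 0.206 with the animal as a block), and turned positive, at 0.93, with the identity scaling. Oat, ornithine aminotransferase, was at 440 ± 89.5 and 44.6 ± 39.2 CPM (SD, n = 3), with 0 counts in PAP animal 3, and did not pass (edgeR adjusted p 0.202). The 7 receptors known from astrocytes gave 0 calls with edgeR and with DESeq2, and 0 at an unadjusted p under 0.05 in either. The abundant Gabbr1, a GABA-B receptor subunit, was at 252 ± 50.1 and 219 ± 131 CPM (SD, n = 3; edgeR adjusted p 0.872), with Gabrg1 at 133 ± 58.3 and 51.3 ± 46.0 CPM (edgeR adjusted p 0.63).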

How the data were processed

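The authors deposited raw read counts per Ensembl gene for 48 samples, 8 technical replicates of each of 6 libraries. Per the submitters' processing notes the tools were bcl2fastq 2.18.0.12, Trim Galore 0.4.1, STAR 2.5.2b, SAMtools and HTSeq 0.5.3 with mm10. The labels name amplification with SMART-Seq v4 and Nextera XT. Technical replicates were summed, since they are not separate animals. Symbols, positions and exonic lengths came from GENCODE M21 (GRCm38). Genes were filtered with filterByExpr (minimum count 10), scaled by TMM and tested with edgeR 4.0.16 (quasi-likelihood, group only, Benjamini-Hochberg over 14618 genes, threshold 0.05), after a check on simulated data. At the dispersion of these data the check recovered 23.5% of 200 genes changed by 4 on the log2 scale, and 18% with the animal as a block. A gene that did not pass is therefore not shown to be unchanged. DESeq2 1.42.0, other scalings, filters, thinning and leaving out each library were alternatives. Ratios were tested by exact permutation over 20 relabellings. Counting intervals cover counting error only.

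The animal numbers pair the libraries, because the labels give the same animal for both compartments. The deviations from group means of same-animal libraries correlated at 0.0335, 0.0187 and -0.0326. The members and gene lists were chosen with earlier results of these data known. Of each pathway list, the genes with an adjusted p under 0.05 and the 2 most abundant were named, and for each member the 2 closest profiles. A few items that this rule names are not reported here.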

Additional observations from a re-analysis of the deposited data

How the results depend on the processing

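The group-only fit called 3115 genes (865 higher in PAP, 2250 lower). The replicate block (animal) gave 133 (128 higher, 5 lower), a mean of at least 100 counts 1414 (826 lower), thinning 1730 (1012 lower), DESeq2 4756 (1672 higher), the identity scaling 1762 higher and 1409 lower, and no filter 571 higher. Leaving out 1 library gave 115 to 4586 calls, 114 to 1251 higher and 1 to 3335 lower. Slc1a3, at -1.53, no longer passed with the replicate block (-1.49) or a mean of at least 100 counts (-1.33), and ran from -1.78 to -1.34 with 1 library left out. The ranges were -1.90 to -1.04 for Slc1a2, -3.05 to -1.71 for Glul, -1.66 to -0.77 for Slc6a11 and -0.62 to 0.18 for Gabbr1. Under the identity scaling the sign turned for Slc1a2 (0.41), Slc1a3 (0.44), Slc6a11 (0.82), Abat (0.60), Glud1 (0.93), Gabbr1 (1.47) and Gabrg1 (0.67). The log2 ratio difference ran from -0.16 to 0.29 for Slc1a2 over Slc1a3 and from -2.90 to 0.0562 for Abat over Slc6a11, which was 0.0636 from technical replicates 1 to 4, where PAP animal 2 had too few Abat counts and was left out. The cause of these shifts was not tested. PAP depth limits the low genes, 3 counts being 0.987 to 1.54 CPM.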

Other observations

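Within the Astro group, genes of membrane carriers differed between animals in a shared way, a pattern noticed after the values were seen and given as a description. The Astro library of animal 3 was the lowest of the 3 for all 4 carriers among the members (Slc1a2, Slc1a3, Slc6a11 and Slc38a3) and for neither Glul nor Abat, whose proteins are made in the cytosol. Among the identity genes it was the lowest for all 6 that encode membrane proteins (Aqp4, Gja1, Gjb6, Mlc1, Hepacam and Fgfr3) and for 1 of the 6 others. Of 37 other solute carrier genes with an Astro mean of at least 50 CPM, 29 (78.4%) were lowest in that library, whereas of 19 mitochondrial carriers of the Slc25 family, 1 (5.26%) was. The share over all 4269 tested genes at that level was 37.0%. With 1 library per animal, animal and library preparation cannot be told apart.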
